A study of Mus musculus with 6 samples.

Results

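The transcript of p53 (Trp53) and those of 9 genes named for it, controlled by it or controlling it were followed in quiescent muscle stem cells (qMuSCs) with and without type 2 deiodinase (D2, gene Dio2), the enzyme that converts thyroxine into the active hormone T3. The 10 members, of 31053 genes in the count table, were p53 itself, its inhibitors Mdm2 and Mdm4, the genes named for induction by p53 or for a p53-induced nuclear protein, Trp53i11 and Trp53inp1, and the targets Ccng1, Zmat3, Bbc3, Bax and Sesn2. Trp53i11 was selected on its count in these same libraries, chosen by its rise in D2-depleted cells, so its difference between genotypes is described without a test. The other 9 were listed for their known roles, with earlier results of these data known. All 10 members passed the minimum of a mean normalised count above 10 that left 11633 genes for testing.

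RNA of GFP+ cells sorted from resting hindlimb muscles was sequenced with 1 library per mouse in 3 WT mice, named c124, c129, c130, and in 3 cD2KO animals, named fl125, fl126, fl128, aged 3 to 4 months. WT mice were Pax7nGFP/+;Pax7+/+;Dio2Fl/Fl and cD2KO mice were Pax7nGFP/+;Pax7-CreERT2/+;Dio2Fl/Fl. Both groups thus carried the Pax7nGFP reporter and floxed Dio2, and both were given tamoxifen. WT mice lacked the CreERT2 allele, so effects of the Cre allele and of Dio2 loss cannot be told apart, and Cre acted only in cells that express Pax7. By the study's account, tamoxifen removes Dio2 in most but not all qMuSCs of such mice.

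p53 is a transcription factor that is kept low in unstressed cells because Mdm2, a ubiquitin ligase, marks the protein for degradation and Mdm4 masks its transactivation domain. DNA damage and other stresses release p53 from these inhibitors, mainly by protein modification and not through the level of its mRNA. Freed p53 then binds DNA and activates genes for cell cycle arrest, DNA repair, metabolism and apoptosis, among them Mdm2, which closes a feedback loop. In muscle stem cells p53 is known for its part in the balance between quiescence, activation and cell death.

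Libraries held 2184073 to 3897787 counts, so that 3 counts corresponded to 0.773 to 1.37 CPM (counts relative to a library size of 1e6, scaled with TMM factors). Mouse fl125 stood apart on the first principal component, which carried 45.1% of the variance, and results are given without it where it changed a call. Dio2 itself had 1 to 21 counts per library, at 5.41, 1.86 and 3.48 CPM in WT and 6.83, 1.72 and 0.316 CPM in cD2KO mice. Its loss was not detected in these counts (exact permutation test, two-sided, p = 0.7, with 0.1 the smallest p that 3 mice against 3 allow), and the reason was not tested. Dio2 also overlaps another annotated gene on the opposite strand, and the use of strand in the counting is not given in the sources used here. The sort was checked with marker lists. Pax7 was at 213 to 434 CPM in WT and 316 to 691 CPM in cD2KO mice. The 12 MuSC markers summed to 1370 to 1780 CPM in WT and 2100 to 2230 CPM in cD2KO mice. At an unadjusted p under 0.05 in edgeR, 4 of 12 were higher in cD2KO, against 5.34% of all genes. Markers of other cell types were also present, with none at 0 in all libraries. The 14 mural cell markers summed to 6230 to 10400 CPM in WT and 12300 to 18200 CPM in cD2KO mice. The 18 immune markers summed to 4600 to 8760 against 235 to 3020 CPM, and the 14 endothelial markers to 548 to 749 against 385 to 443 CPM. Sums were 4040 to 6490 against 2460 to 5270 CPM for 10 fibroadipogenic progenitor markers, 4440 to 6770 against 6120 to 6930 CPM for 6 Schwann cell markers and 1930 to 4350 against 3200 to 6500 CPM for 10 myofiber markers. In such bulk RNA, fewer cells of a type and less RNA per cell cannot be told apart.

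To show the DNA ahead of the members' start sites, the 250 bases before the annotated start (RefSeq, GRCm38.p6, 5′ to 3′ on the gene's strand) are printed for Trp53i11, the member that differed most, and for 3 established p53 targets. These 3 are the targets whose window held a match, and the windows of Bbc3 and Sesn2, without a match, are not printed. Capitals mark matches to the p53 half-site consensus, with no mismatch allowed. This motif of 10 letters is searched on both strands at once because its pattern is its own reverse complement.
Trp53i11, chr2:93187298-93187547, plus strand: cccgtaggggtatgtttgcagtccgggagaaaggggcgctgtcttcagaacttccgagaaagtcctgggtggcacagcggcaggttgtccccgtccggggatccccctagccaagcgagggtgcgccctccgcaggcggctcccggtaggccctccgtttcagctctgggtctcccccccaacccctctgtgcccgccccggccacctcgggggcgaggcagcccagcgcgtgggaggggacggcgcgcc
Mdm2, chr10:117710759-117711008, minus strand: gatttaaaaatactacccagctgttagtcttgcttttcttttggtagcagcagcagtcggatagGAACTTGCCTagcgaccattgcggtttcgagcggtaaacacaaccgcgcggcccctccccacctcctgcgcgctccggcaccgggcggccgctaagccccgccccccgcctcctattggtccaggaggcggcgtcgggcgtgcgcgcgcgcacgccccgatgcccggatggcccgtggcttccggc
Ccng1, chr11:40755287-40755536, minus strand: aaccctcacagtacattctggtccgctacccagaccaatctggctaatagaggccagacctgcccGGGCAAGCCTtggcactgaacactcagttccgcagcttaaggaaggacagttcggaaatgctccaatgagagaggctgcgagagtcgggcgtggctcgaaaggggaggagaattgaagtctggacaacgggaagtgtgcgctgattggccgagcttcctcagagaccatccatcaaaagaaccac
Bax, chr7:45466899-45467148, minus strand: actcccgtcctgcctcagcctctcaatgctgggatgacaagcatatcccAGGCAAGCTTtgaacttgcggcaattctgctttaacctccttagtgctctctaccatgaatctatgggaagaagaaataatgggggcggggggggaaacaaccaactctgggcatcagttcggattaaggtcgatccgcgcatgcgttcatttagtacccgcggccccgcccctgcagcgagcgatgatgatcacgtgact

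Of 32851 such windows of all genes, 2341 (7.13%) held at least 1 match, and 21 (0.0639%) held 2 matches no more than 13 bases apart, the spacing of a full p53 element. Windows were found for 8 members, without Zmat3 and Trp53inp1. Single matches were present for Mdm2, Ccng1, Bax and Trp53 itself. No match was found in this window for Trp53i11, Mdm4, Bbc3 or Sesn2, and no member window held 2 matches at that spacing. A match or its lack describes the letters of a short window and not binding by p53, whose sites often lie elsewhere, as in introns.

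Trp53 mRNA (chr11:69580359-69591873, plus strand) was low and did not change detectably. It was at 8.50, 5.20 and 5.57 CPM in WT mice (in the order c124, c129, c130 here and below), and at 6.38, 6.88 and 6.32 CPM in the cD2KO group (fl125, fl126, fl128). The highest and the lowest mouse were both WT, and the 3 cD2KO mice lay between them. The log2 fold change of cD2KO over WT was 0.01 ± 0.51 (SE, n = 3 per group), with a 95% interval from -1.09 to 1.11 and an adjusted p of 0.994 in edgeR. With 14 to 33 counts per library, changes of up to about that interval were not detectable. An annotated pseudogene of Trp53 makes a part of its reads uncertain. The genes whose pattern over the 6 mice was nearest to that of Trp53 were Cers5, a ceramide synthase, Metap1, a methionine aminopeptidase, and Sept3, a septin. Their centred log2 CPM differed from those of Trp53 by a root mean square of 0.0479, 0.0513 and 0.0594, against a median of 0.411 over 11632 genes. The likeness is over 6 libraries that share their groups, and is a description.

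The inhibitors of p53 also overlapped between genotypes. Mdm2 (chr10:117688875-117710758, minus strand), both ubiquitin ligase for p53 and p53 target, was at 44.8, 51.6 and 75.9 CPM in WT and at 76.5, 64.7 and 41.1 CPM in cD2KO mice. Its highest and lowest values both came from cD2KO mice, fl125 and fl128. The log2 fold change was 0.08 ± 0.27 (SE, n = 3 per group; 95% interval from -0.51 to 0.66, edgeR adjusted p = 0.950).
Mdm4 (chr1:132959484-133030561, minus strand), the relative of Mdm2 that masks p53, was at 79.1, 55.0 and 68.2 CPM in WT and at 102, 53 and 61.6 CPM in cD2KO mice. Here fl125 was the highest mouse, and fl126 the lowest, so the cD2KO mice spanned the WT range. The log2 fold change was 0.09 ± 0.26 (95% interval from -0.46 to 0.65, edgeR adjusted p = 0.934). Mdm4 has a pseudogene and an overlapping gene on the opposite strand, so its reads are partly uncertain.

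Trp53i11 (tumor protein p53 inducible protein 11, chr2:93187548-93201759, plus strand, ENSMUSG00000068735), a membrane protein gene first found as induced by p53, was the 1 member whose genotypes did not overlap. It was at 31.9, 27.8 and 39.7 CPM in WT and at 52.4, 64.7 and 111 CPM in cD2KO mice, from 75 to 353 counts per library. The lowest cD2KO mouse, fl125, lay above the highest WT mouse, c130, and fl128 lay far above the other two. Group means were 33.15 ± 6.01 and 76.2 ± 31.2 CPM (SD, n = 3 each), a ratio of 2.3, or 2.66 without fl125. The coefficient of variation was 18.1% in WT and 40.9% in cD2KO mice. The log2 fold change was 1.205 ± 0.29 (SE), at rank 90 of 11633 genes by size of rise. Without each mouse in turn it lay between 0.82, without fl128, and 1.45, without fl125. Over all genes tested, 8.05% had every cD2KO mouse above every WT mouse, and 5.34% were higher in cD2KO at an unadjusted p under 0.05. Nothing is read from these shares for Trp53i11, since its rise in these mice is why it was listed.

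**Figure D1:**
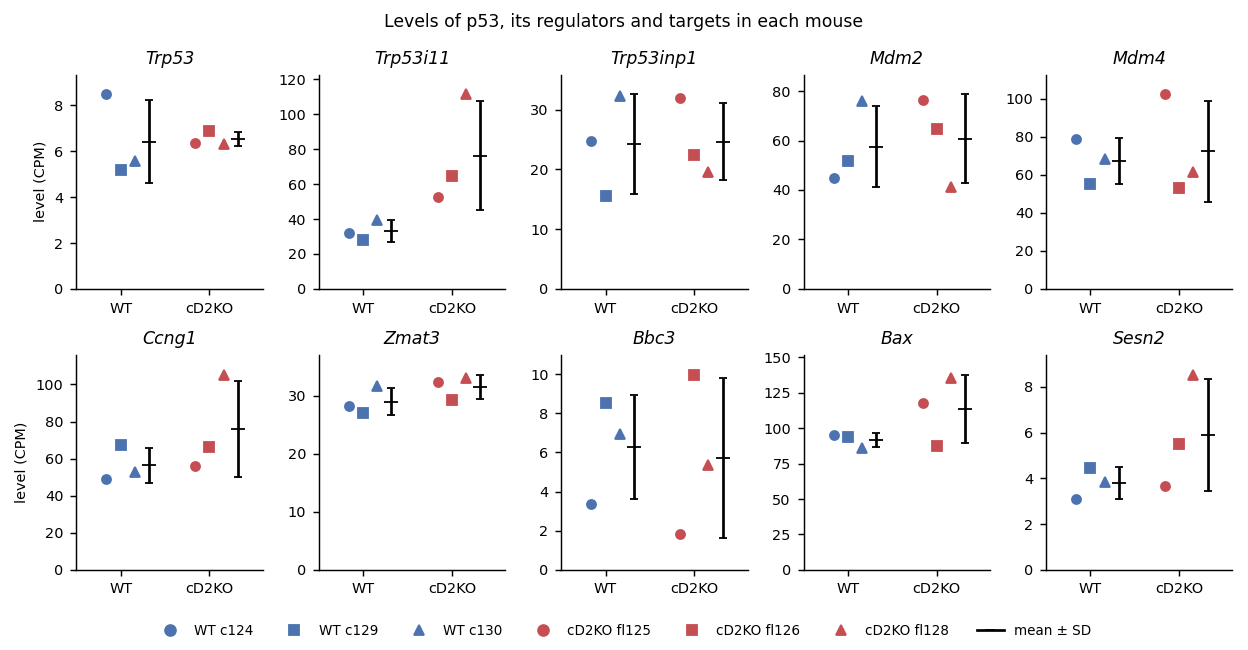
Levels of the 10 members in each mouse, in CPM on linear axes from 0, with 1 panel per gene, blue symbols for WT and red symbols for cD2KO mice, and a bar for the mean ± SD of 3 mice. In the Trp53i11 panel the 3 cD2KO mice sit at 52.4 to 111 CPM, above the 3 WT mice at 27.8 to 39.7 CPM, while in each other panel the genotypes overlap.

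The 5 genes whose pattern over the 6 mice was nearest to that of Trp53i11 were Amigo2, a neuronal and vascular adhesion protein, Kcnk3, a potassium channel, Myh11, the smooth muscle myosin heavy chain, Des, the muscle intermediate filament desmin, and Itga3, an integrin alpha chain. Their centred log2 CPM differed from those of Trp53i11 by a root mean square of 0.0928 to 0.131, against a median of 0.762 over 11632 genes and against a spread of 0.664 for Trp53i11 itself. Myh11 was at 2130, 2000 and 2440 CPM in WT and at 3110, 3880 and 6130 CPM in cD2KO mice. Amigo2 was at 57.9, 56.1 and 76.9 CPM in WT and at 98.8, 114 and 183 CPM in cD2KO mice. In all 5, as in Trp53i11, c129 was the lowest and fl128 the highest mouse. The 5 were picked for their likeness to Trp53i11 in these same mice, and Trp53i11 for its rise in them. The shared order and rise therefore follow from that choice and are a description.
At an unadjusted p under 0.05 in edgeR, 5.34% of all genes were higher in cD2KO and 6.62% were lower. Des belongs to the MuSC marker list, of which 4 of 12 genes were higher in cD2KO at that threshold. Myh11 belongs to the mural marker list, of which 6 of 14 were higher and 0 lower at the same threshold. The 6 were Acta2, Myh11, Tagln, Cnn1, Mcam and Notch3. The other mural markers were not called and went both ways. Their log2 fold changes were -0.41 for Steap4, -0.36 for Kcnj8, -0.23 for Abcc9, -0.06 for Pdgfrb and 0.003 for Rgs5. They were 0.25 for Cspg4, 0.34 for Higd1b and 0.43 for Ndufa4l2. The summed mural markers were at 10400, 6230 and 7840 CPM in WT and at 12300, 13400 and 18200 CPM in cD2KO mice, so they too were lowest in c129 and highest in fl128. Unlike Trp53i11, they were higher in c124 than in c130. The part of mural cell RNA in the level of Trp53i11 was not tested.

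**Figure D2:**
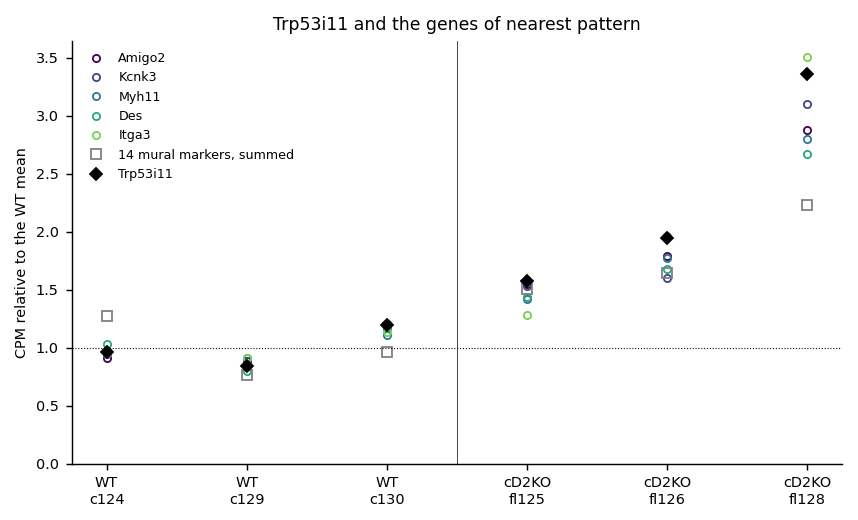
Trp53i11 (black diamonds), the 5 genes of nearest pattern (circles) and the summed mural markers (squares) in each of the 6 mice, as CPM divided by the mean of the 3 WT mice, on a linear axis from 0. The circles lie near the diamonds in each mouse and spread most in fl128, and the squares lie above the diamond in c124 and below it in fl128.

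Trp53inp1 (chr4:11156431-11174379, plus strand), whose nuclear protein is known as a p53 target and partner in stress responses and autophagy, did not share the pattern of Trp53i11. It was at 24.7, 15.6 and 32.4 CPM in WT and at 31.9, 22.4 and 19.6 CPM in cD2KO mice. The cD2KO mice all lay inside the WT range. Its log2 fold change was 0.01 ± 0.33 (SE, n = 3 per group; 95% interval from -0.70 to 0.72, edgeR adjusted p = 0.992).

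Among the targets for growth control, Ccng1 and Sesn2 were highest in the same cD2KO mouse, fl128, but neither passed the test. Ccng1 (cyclin G1, a p53 target that recruits a phosphatase to Mdm2, chr11:40748552-40755311, minus strand) was at 49.2, 67.2 and 52.6 CPM in WT and at 56.0, 66.4 and 105 CPM in cD2KO mice. The highest WT mouse, c129, lay above fl125 and fl126. Its log2 fold change was 0.44 ± 0.25 (95% interval from -0.11 to 0.98, edgeR unadjusted p = 0.108 and adjusted p = 0.533). It fell to 0.12 without fl128 and was 0.65 without fl125, where the unadjusted p was 0.0164 and the adjusted p 0.189. With no minimum count, the unadjusted p was 0.0488 and the adjusted p 0.453.
Sesn2 (sestrin 2, an inhibitor of mTORC1 signalling under leucine lack and oxidative stress, chr4:132492032-132510501, minus strand) was at 3.09, 4.46 and 3.83 CPM in WT and at 3.64, 5.50 and 8.53 CPM in cD2KO mice. These levels rest on 8 to 27 counts per library. Mice fl126 and fl128 lay above the WT mice and fl125 lay among them. The log2 fold change was 0.65 ± 0.60 (95% interval from -0.62 to 1.93, edgeR adjusted p = 0.731). Sesn2 overlaps another gene on its own strand, so a part of its reads is uncertain.
Zmat3 (chr3:32334792-32366014, minus strand), a zinc finger protein that binds RNA and is among the genes most regularly induced by p53, varied little. It was at 28.3, 27.1 and 31.7 CPM in WT and at 32.3, 29.2 and 33.2 CPM in cD2KO mice. The coefficient of variation was 8.15% in WT and 6.56% in cD2KO mice, and the highest mouse was 1.22 times the lowest. Its log2 fold change was 0.12 ± 0.25 (95% interval from -0.42 to 0.66, edgeR adjusted p = 0.909).

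The apoptosis targets were Bax, the effector that permeabilises the outer mitochondrial membrane, and Bbc3 (PUMA), a BH3-only protein that sets Bax and its relatives free. Bax (chr7:45461697-45466898, minus strand) was at 95.5, 93.6 and 86.3 CPM in WT and at 118, 87.4 and 135 CPM in cD2KO mice. WT mice lay close together, fl125 and fl128 lay above them and fl126 lay among them. The log2 fold change was 0.31 ± 0.21 (SE, n = 3 per group; 95% interval from -0.14 to 0.75, edgeR adjusted p = 0.611). Bax overlaps another annotated gene on its own strand.
Bbc3 (chr7:16308393-16318205, plus strand) was at 3.35, 8.54 and 6.96 CPM in WT and at 1.82, 9.97 and 5.37 CPM in cD2KO mice, from 4 to 29 counts per library. Both its highest and its lowest value were in cD2KO mice, fl126 and fl125. Its log2 fold change of -0.10 ± 0.65 had the widest interval of the members, from -1.49 to 1.30 (edgeR adjusted p = 0.972).

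Read together, the 9 members other than Trp53i11 held 0 genes that were higher and 0 that were lower at an unadjusted p under 0.05 in edgeR, where 5.34% and 6.62% of all genes tested were called. Counts were also 0 and 0 with DESeq2 and with limma voom. Genotypes overlapped in all 9, against 18.1% of all genes whose genotypes did not overlap. The median log2 fold change was 0.09, with 8 of 9 above 0, against a median of -0.02 and 48.1% above 0 over all genes. Mouse fl128 was the highest mouse in 5 of the 10 members (Trp53i11, Ccng1, Zmat3, Bax and Sesn2) and the lowest in Mdm2. Mouse c129 was the lowest in 4 (Trp53, Trp53i11, Trp53inp1 and Zmat3).

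**Figure D3:**
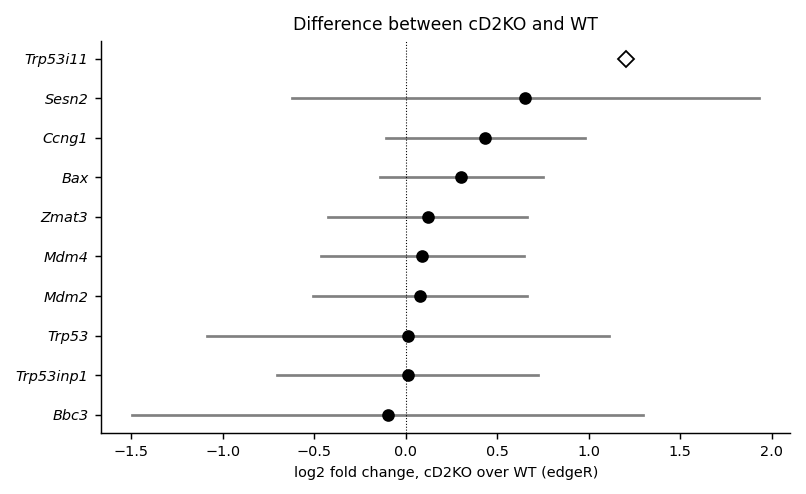
Log2 fold change of cD2KO over WT for each member, with lines for the 95% interval of edgeR and an open diamond without an interval for Trp53i11. The intervals of the 9 other members include 0, from the narrow one of Bax (-0.14 to 0.75) to the wide one of Bbc3 (-1.49 to 1.30), and Trp53i11, chosen for its rise, lies at 1.205.

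To see whether other p53 targets behaved like the members, a list of 42 further targets was examined, of which 35 passed the minimum count. The p53 target Cdkn1a was left out of the members and of this list. This list and those below were drawn up with earlier results of these data known, so their counts are a description. In edgeR, 0 rose and 8 fell at an unadjusted p under 0.05 (22.9% of those tested, against 6.62% of all genes), and their median lay at -0.25 on the log2 scale, with 12 genes above and 23 below 0. Every cD2KO mouse was below every WT mouse in 8 of the 35, against 10% of all genes. No target had an adjusted p under 0.05 in this fit, which 0.0086% of all genes had, and the smallest was 0.0885. Under the DESeq2 Wald test the adjusted p was 0.00116 for Klf4 and 0.0088 for Btg2, and in edgeR with no minimum count it was 2.18e-06 for Klf4, 1.63e-05 for Btg2 and 0.00309 for Gdf15. The share of all genes with an adjusted p under 0.05 in those other fits was not counted, so how rare such values are there is unknown. The 8 were Klf4, Btg2, Apaf1, Gdf15, Plk2, Sesn1, Zfp385a and Polk, the last 3 named after their values were seen because the rule kept only the first 5 by p.
Klf4, a transcription factor that restrains the cell cycle, was at 108, 255 and 177 CPM in WT and at 67.4, 71.5 and 64.4 CPM in cD2KO mice. Every cD2KO mouse was below every WT mouse, and the log2 fold change was -1.41 ± 0.27 (SE, n = 3 per group; edgeR adjusted p = 0.0885). Btg2, an antiproliferative factor that speeds mRNA decay, was at 111, 318 and 171 CPM in WT and at 76.5, 91.1 and 76.1 CPM in cD2KO mice. Its genotypes did not overlap either, and its log2 fold change was -1.30 ± 0.33 (edgeR adjusted p = 0.132). In both genes the cD2KO mice lay close together and c129 was the highest WT mouse. Both stayed under an unadjusted p of 0.05 without each mouse in turn, with log2 fold changes from -1.67 to -1.04 and from -1.59 to -0.77.
Apaf1, the scaffold of the apoptosome, was at 3.35, 12.3 and 8.70 CPM in WT and at 0.455, 1.38 and 3.16 CPM in cD2KO mice. Its log2 fold change of -2.18 ± 0.75 rests on 1 to 33 counts per library (edgeR adjusted p = 0.248), without c129 it did not reach the minimum count, and the call was lost under limma voom. Gdf15, a secreted stress cytokine, was at 51.0, 133 and 66.5 CPM in WT and at 39.6, 51.6 and 27.5 CPM in cD2KO mice. Here genotypes overlapped between c124 and fl126, and the log2 fold change of -1.07 ± 0.36 (edgeR adjusted p = 0.252) lost its call without c129 or fl128.
Plk2, a polo-like kinase, was at 73.7, 83.5 and 67.9 CPM in WT and at 38.3, 47.8 and 58.7 CPM in cD2KO mice. Its log2 fold change was -0.63 ± 0.22 (edgeR adjusted p = 0.262), without overlap, and the call was lost without c129 or fl125. Sesn1, the sestrin related to Sesn2, was at 80.9, 107 and 86.0 CPM in WT and at 61.0, 68.1 and 62.9 CPM in cD2KO mice (log2 fold change -0.51 ± 0.20, edgeR adjusted p = 0.341), and its call was lost without c129, fl125 or fl128. Zfp385a, a p53 cofactor, was lower by a log2 fold change of -0.71 ± 0.29 and Polk, a translesion DNA polymerase, by -1.07 ± 0.47 (edgeR adjusted p = 0.356 and 0.389), and their calls were lost without 2 and 4 of the mice in turn, and that of Polk under limma voom. Apaf1, Sesn1 and Polk each share bases with another annotated gene.
The count of targets that fell depended on single mice. It was 4 without c129, of which 3 were among the 8, and 5 without fl128, and it lay between 6 and 9 without each of the other four. Over all genes the count that fell went from 770 to 399 without c129 as well, and to 676 without fl128.

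Klf4 and Btg2 are also known as genes that growth factors switch on quickly. A list of 8 immediate early genes (Fos, Fosb, Jun, Junb, Egr1, Ier2, Atf3 and Nr4a1), chosen after the values were seen, summed to 2080, 6330 and 3330 CPM in WT and to 1870, 2490 and 1800 CPM in cD2KO mice. At an unadjusted p under 0.05 in edgeR, 5 of 8 were lower in cD2KO, against 6.62% of all genes. Fosb, Atf3 and Nr4a1 were not called, with log2 fold changes of -1.64, -1.47 and -0.33. Mouse c129 was the highest mouse for the summed early genes as well as for Klf4, Btg2, Gdf15, Plk2, Sesn1 and Apaf1. The part of the immediate early response in the lower target levels was not tested. Neither was that of immune, endothelial or fibroadipogenic progenitor RNA. Of their tested markers, 5 of 18, 8 of 13 and 3 of 10 were lower in cD2KO at the same threshold, against 6.62% of all genes. The immune and fibroadipogenic sums were also highest in c129, at 8760 and 6490 CPM.

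**Figure D4:**
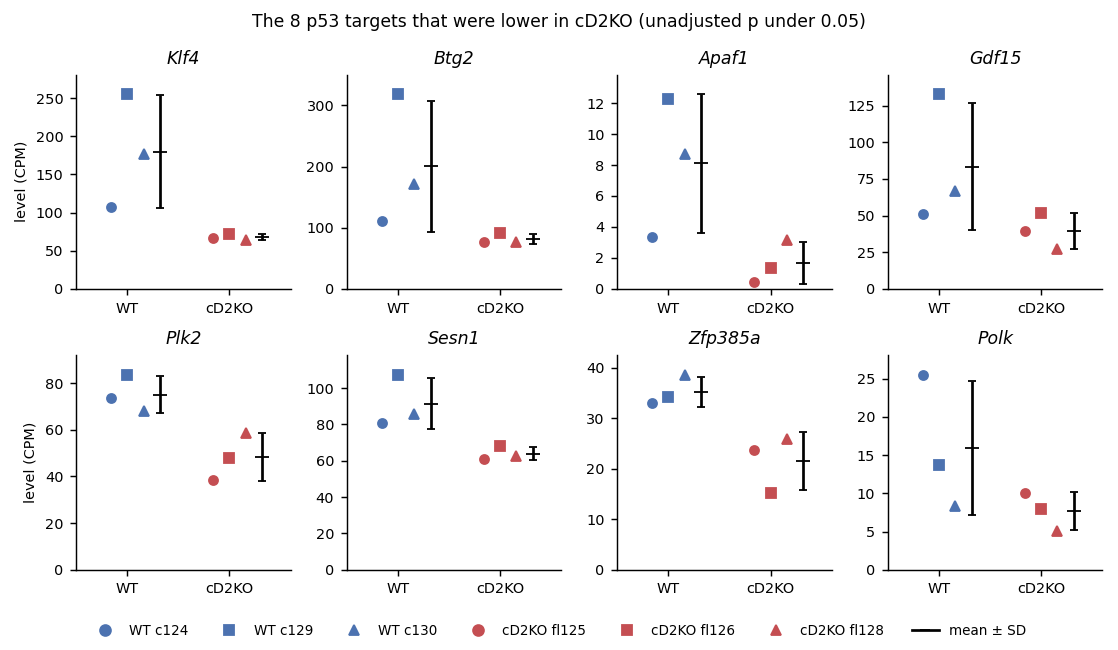
Levels in CPM in each mouse of the 8 p53 targets that fell (edgeR, unadjusted p under 0.05), with blue symbols for WT, red symbols for cD2KO and bars for mean ± SD. In 6 of the 8 every cD2KO mouse lies below every WT mouse, and in Gdf15 and Polk the genotypes overlap.

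Genes that act on p53 were read next. Of 28 regulators (kinases, acetyltransferases, ubiquitin ligases, deubiquitinases and binding partners), 26 were tested, 1 was higher (3.85%, against 5.34% of all genes) and 0 were lower (against 6.62%), with a median log2 fold change of -0.07. The 1 was Ube4b, a ubiquitin chain elongation factor that acts with Mdm2 on p53. It was at 51.5, 56.1 and 76.2 CPM in WT and at 80.2, 94.9 and 107 CPM in cD2KO mice, a log2 fold change of 0.62 ± 0.22 (SE, n = 3 per group; edgeR adjusted p = 0.260) without overlap. The call was lost without c124 or fl128, and genes on the opposite strand overlap Ube4b.
Of 7 relatives of the members by name or sequence, 5 were tested, 2 were higher (against 5.34% of all genes) and 0 were lower (against 6.62%). Trp53rka, a copy of the p53 regulating kinase gene, was at 15.5, 11.1 and 18.5 CPM in WT and at 33.3, 25.5 and 25.6 CPM in cD2KO mice (log2 fold change 0.90 ± 0.31, edgeR adjusted p = 0.253), and kept an unadjusted p under 0.05 without each mouse in turn. Its paralog Trp53rkb had a log2 fold change of -0.23 ± 0.45 (edgeR adjusted p = 0.90). Reads may be split between these similar copies, so the rise is uncertain. Trp53inp2, the paralog of Trp53inp1 with a role in autophagy, was at 74.4, 56.8 and 57.1 CPM in WT and at 96.1, 78.4 and 108 CPM in cD2KO mice (log2 fold change 0.58 ± 0.21, edgeR adjusted p = 0.285), with the call lost without c130 or fl128. Whether the changes of Trp53inp1 and Trp53inp2 differ from each other was not tested. The p53 family member Trp73 had 0 counts in all 6 libraries, and Trp63 was under the minimum, at 0.515 to 5.94 CPM.
In the Bcl2 family, to which Bax and Bbc3 belong, 10 of 12 further genes were tested, 1 was higher and 0 were lower, near the 5.34% and 6.62% of all genes, with a median log2 fold change of 0.07. Bad, a BH3-only protein under control of growth factor kinases, was at 84.2, 83.2 and 89.1 CPM in WT and at 118, 119 and 105 CPM in cD2KO mice, a log2 fold change of 0.41 ± 0.19 (edgeR adjusted p = 0.40). Its call was lost without c124, c129, c130 or fl126, under DESeq2, and with no minimum count or a minimum of 50, and Bad overlaps a gene on the opposite strand. No gene of these 3 lists had an adjusted p under 0.05 in this edgeR fit.

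**Figure D5:**
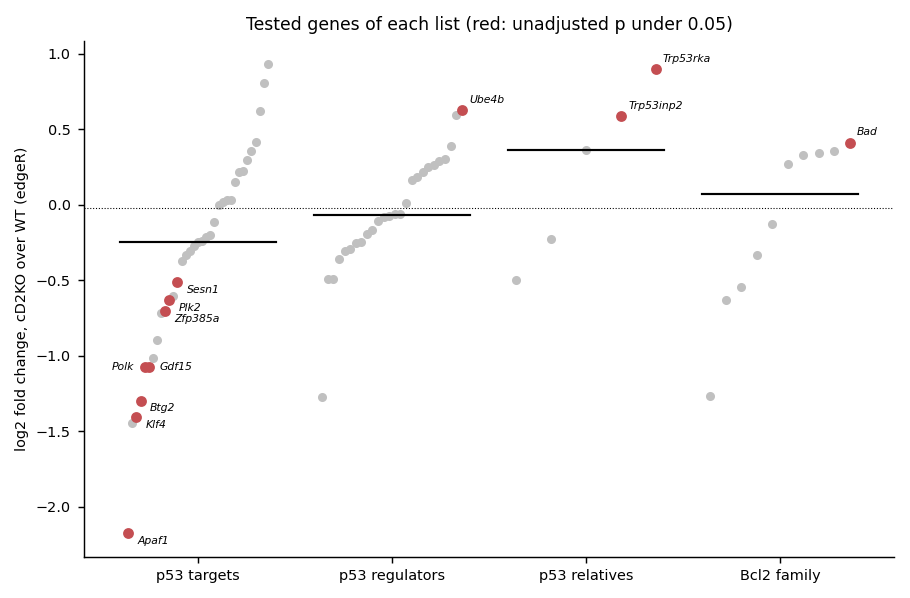
Log2 fold change of cD2KO over WT for each tested gene of 4 lists, sorted within a list, with red points for an unadjusted p under 0.05, a bar for each list's median and a dotted line for the median of all genes (-0.02). Red points lie below 0 in the p53 target list (8 of 35) and above 0 in the other lists (1 of 26 regulators, 2 of 5 relatives and 1 of 10 Bcl2 family genes).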

How the data were processed

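RNA from sorted GFP+ muscle stem cells of 3 WT and 3 cD2KO mice was sequenced by a commercial digital RNA-seq service. The submitters' processing notes name bcl2fastq, STAR 2.6.0a, HTSeq 0.9.1 and mm10. The authors deposited raw counts per gene, without normalization. The annotation, use of strand and handling of duplicates are not given in the sources used here, so overlapping genes and near copies are uncertain. All 6 count columns were used.

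Genes with a mean DESeq2-normalized count above 10 were kept (11633). The robust quasi-likelihood test of edgeR 4.0.16 (R 4.3.3) was run on TMM-scaled counts of all 6 mice without covariates. It was also run on data simulated from these counts, with an outcome that is not given here. The threshold was an unadjusted p of 0.05, as in the study, with Benjamini-Hochberg adjusted p-values (all 11633 genes) beside it. CPM used TMM-scaled library sizes of the genes tested, and SDs are between mice. Log2 CPM for patterns used a prior count of 2. Gene positions are from GENCODE M21 (mm10).

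The members and gene lists were chosen with earlier results of these data known. Named genes were Dio2, the members, up to 5 genes of each list per direction by p among those under 0.05, the 5 genes nearest to Trp53i11 and the 3 nearest to Trp53. Alternatives were DESeq2 1.42.0, limma 3.58.1 voom, DESeq2 or upper quartile factors in edgeR, no minimum or a minimum of 50, adjusted p under 0.05, and leaving out each mouse.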

Additional observations from a re-analysis of the deposited data

How the results depend on the processing

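No paired analysis was possible because the labels give no replicate numbers, and those used here only name the mice in accession order. Of 421 recomputed values, 343 kept their direction and their side of the threshold, or their count within 1.5 times. At an adjusted p under 0.05 in edgeR with the minimum of 10, 1 gene was higher and 0 were lower, and 0 genes of each list were called in either direction. Adjusted p fell under 0.05 for Klf4 (0.00116) and Btg2 (0.0088) under DESeq2, for Klf4 (2.18e-06), Btg2 (1.63e-05) and Gdf15 (0.00309) with no minimum count, and for Klf4 without c124 (0.0493) or fl125 (0.0428). The share of all genes under that adjusted p was not counted in these fits. Without a minimum count, 939 genes were higher, 1 member other than Trp53i11 was higher (Ccng1), and in the Bcl2 family 0 were higher and 1 was lower. With a minimum of 50, 505 genes were lower and 0 Bcl2 family genes were higher, as under DESeq2 (0). Under limma voom and with DESeq2 size factors, 1 p53 target was higher. Leaving out each mouse in turn, genes higher ranged from 402 to 933 and genes lower from 399 to 874, members higher from 0 to 1, p53 targets higher from 0 to 2 and lower from 4 to 9, regulators higher from 0 to 2 and lower from 0 to 1, relatives higher from 1 to 2, and Bcl2 family genes higher from 0 to 1 and lower from 0 to 3. Log2 fold changes that turned in sign, none of them called, ranged from -0.0944 to 0.274 (Trp53), -0.20 to 0.27 (Trp53inp1, and -0.0173 with a minimum of 50), -0.0802 to 0.329 (Mdm2), -0.20 to 0.28 (Mdm4) and -0.74 to 0.34 (Bbc3). The difference in Dio2, cD2KO minus WT, was -0.626 CPM and ranged from -2.56 to 0.694 CPM (0.287 without c124, 0.694 without fl128). The cause of these shifts was not tested. Depth limits Trp53, Bbc3, Sesn2, Apaf1, Bid, Pidd1, Pmaip1, Trp63 and Dio2, at 33 counts or fewer in every library.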

Other observations

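Other genes of the lists had genotypes that did not overlap and did not pass the test. Those given here were named after their values were seen. Pmaip1 (NOXA, a BH3-only target of p53) was under the minimum count, at 3.09, 10.8 and 2.09 CPM in WT and at 0, 0.688 and 0.632 CPM in cD2KO mice, from 0 to 2 counts in the latter, and it was called lower with no minimum count and without fl125. Gadd45a, a DNA damage and stress gene, had means of 21.2 (WT) and 12.8 CPM (cD2KO), no overlap and a log2 fold change of -0.72 (edgeR adjusted p = 0.425), and it was called lower without c124 or c130. Pidd1, a death domain protein, was at 4.38, 4.08 and 6.96 CPM in WT and at 0, 3.78 and 3.47 CPM in cD2KO mice (log2 fold change -1.01, edgeR adjusted p = 0.685), from 0 to 20 counts per library. Cyfip2, an actin regulator, was the 1 tested target of the list with every cD2KO mouse above every WT mouse, at means of 8.51 and 14.8 CPM (log2 fold change 0.80, edgeR adjusted p = 0.425). Dyrk2, a kinase that phosphorylates p53, was at 94.8, 94.3 and 96.4 CPM in WT and at 97.9, 109 and 142 CPM in cD2KO mice (log2 fold change 0.29, edgeR adjusted p = 0.619).

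Among apoptosis genes, Bak1, the effector that works beside Bax, was at 45.6, 42.3 and 54.7 CPM in WT and at 57.4, 59.5 and 63.8 CPM in cD2KO mice, a log2 fold change of 0.34 ± 0.21 (edgeR adjusted p = 0.570). Bid, a BH3-only activator, was at 3.61, 8.17 and 5.92 CPM in WT and at 2.28, 2.06 and 2.84 CPM in cD2KO mice (log2 fold change -1.27 ± 0.64, edgeR adjusted p = 0.470). Its levels rest on 5 to 22 counts per library, and annotated genes on each strand overlap Bid. Of the sestrins, Sesn3 was at 23.2, 31.6 and 22.6 CPM in WT and at 19.1, 20.0 and 15.5 CPM in cD2KO mice (log2 fold change -0.50 ± 0.30, edgeR adjusted p = 0.540), and Sesn1 was also lower in every cD2KO mouse while Sesn2 was not. Whether the sestrins differ in their change was not tested.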
